A study of Xenopus tropicalis with 11 samples.

Results

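Bulk nucleosomes of *X. tropicalis* XTN-6 cells, pulled down with antibodies against histone H3 or H4, were set against the inputs of the same replicates. The comparison used 6 of the 11 libraries of the series, chosen by their labels: H4 of replicate 1, H3 of replicates 2 and 3, and the inputs of replicates 1, 2 and 3. XTN-6 is a frog cell line, and the labels give wild type animals of the NXR Nigerian strain at stage NF 20 for all of these libraries. They also name whole tadpoles as the cell type beside XTN-6 cells as the source, and the culture protocol is that of the cells. Nuclei were digested to mononucleosomes with micrococcal nuclease (MNase) without crosslinking, the soluble nucleosomes were precleared on beads, and a sample taken at that point was the input. The rest was incubated with antibodies against H4, H3 or *X. laevis* Cenp-a, or with rabbit IgG. Because H4 stands only in replicate 1 and H3 only in replicates 2 and 3, the antibody and the replicate cannot be told apart. The paper calls the replicates technical and the series description calls them biological, so p-values measure the spread between these libraries only.

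A nucleosome is DNA wound around a core of histones H2A, H2B, H3 and H4. H3 and H4 form the central tetramer, and in centromeric nucleosomes the variant Cenp-a takes the place of H3 while H4 stays. A pull-down of bulk nucleosomes therefore samples nearly all packaged DNA, and its ratio to MNase-digested input is often taken as flat when it serves as the control for another ChIP. Open, often transcribed chromatin and compact, repeat-rich chromatin differ in how readily MNase releases and degrades their nucleosomes.

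The authors deposited raw counts of reads in bins of 10 kb. The pull-downs held 52219796 (H4 replicate 1), 64456099 (H3 replicate 2) and 45198397 counts (H3 replicate 3), and inputs 1, 2 and 3 held 59563801, 42471017 and 78281804 counts, with a median of 253 to 465 counts per bin. Values are given in CPM, the counts of a bin scaled to the same total on the 10 chromosomes in every library, and a ratio in 1 bin had 0.1 CPM added to both values. IgG of replicates 2 and 3, which measured unspecific pull-down, had 4053600 and 107881690 counts, so single bins of IgG replicate 2 (median 24 counts) were imprecise. IgG of replicate 2 shares its input with H3 of replicate 2, and IgG of replicate 3 shares its input with H3 of replicate 3. Coordinates are those of the v10 genome.

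In most of the genome the histone pull-downs and their inputs gave similar counts, but the 3 pairs did not depart from their inputs to the same extent. The ratio of H4 replicate 1 to its input lay between 0.686 and 1.45 in the central 90% of 144600 bins. The same range was 0.773 to 1.28 for H3 replicate 3 and 0.818 to 1.22 for H3 replicate 2. The H4 pair was the widest and H3 replicate 2 stayed closest to its input. The paper states that the peak caller MACS found no broad peaks for H3 of replicate 2 or for IgG of replicate 3. Between H4 and input, 5154 bins were at least 1.5-fold higher and 5804 at least 1.5-fold lower, against 517 and 1375 for H3 replicate 3 and 229 and 152 for H3 replicate 2. A single bin passed 5-fold, in the H4 pair, and none did in the H3 pairs.

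Counting error alone would give a standard deviation (SD) of the log2 ratio over bins of 0.117 in the H4 pair, 0.119 in H3 replicate 2 and 0.113 in H3 replicate 3. The measured SD was 0.330, 0.178 and 0.224 in the same order. If both reads of every pair had been counted, counting error would give 0.165, 0.168 and 0.159, so H3 replicate 2 had little spread beyond that. IgG replicate 3 had an SD of 0.130.

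The departures of H4 replicate 1 and H3 replicate 3 followed one another over megabases. These pairs share no library. Across 1446 windows of 1 Mb the Pearson correlation of their log2 ratios was 0.784 (Spearman 0.821), across 14488 windows of 100 kb it was 0.710 (0.703), and across bins it was 0.462 (0.433). Windows along a chromosome are not independent, and all libraries were mapped to the same sequence, so these values are descriptions without a test. H4 replicate 1 and H3 replicate 3 lay on the same side of their inputs in 1170 of the 1446 windows (80.9%). H3 replicate 2 went less with either: at 1 Mb its Pearson correlation was 0.323 with H4 replicate 1 and 0.0568 with H3 replicate 3 (Spearman 0.437 and 0.263). Its windows hardly varied, with an SD of 0.0338 on the log2 scale, against 0.197 for the H4 pair and 0.111 for H3 replicate 3. The same SD was 0.0176 for IgG replicate 3 and 0.0669 for IgG replicate 2.

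**Figure D1:**
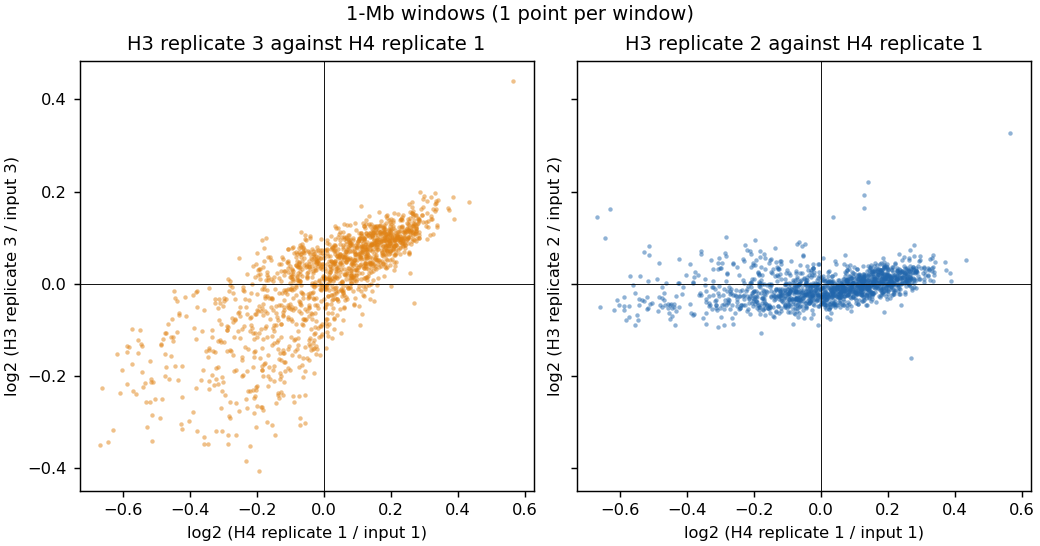
Each point is 1 window of 1 Mb, with the log2 ratio of H4 replicate 1 to its input on the horizontal axis and that of H3 replicate 3 (left) or H3 replicate 2 (right) to its own input on the vertical axis. H3 replicate 3 followed H4 replicate 1 (Pearson 0.784), H3 replicate 2 stayed near 0, and 1 window on chromosome 9 was high in all 3 pairs.

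IgG of replicate 2 ran the other way. Its 1-Mb log2 ratios had a correlation of -0.463 with H4 replicate 1 and of -0.663 with H3 replicate 3, pairs with which it shares no library. IgG of replicate 3 had 0.135 with H4 replicate 1 and 0.382 with H3 replicate 2 (Spearman 0.196 and 0.255), and shares no library with either pair. By Pearson, H3 replicate 2 was thus closer to this IgG than to H4 replicate 1 (0.323) or H3 replicate 3 (0.0568). By Spearman it was not (0.437 and 0.263). Neighbouring bins of H4 replicate 1 were alike, with a correlation of 0.492 at 10 kb, 0.217 at 1 Mb and 0.148 at 5 Mb. H3 replicate 3 had 0.335, 0.192 and 0.150 at the same distances. For H3 replicate 2 the correlation was 0.0644 at 10 kb and had gone at 1 Mb (0.00560).

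Chromosome ends held fewer reads from the histone pull-downs than from the input in H4 replicate 1 and H3 replicate 3. The last 1 Mb of the 20 chromosome ends covers 1.38% of the bins. It took 2.16% of the counts of H4 replicate 1, against 2.97% of input 1. The same bins held 2.12% of H3 replicate 3, against 2.64% of input 3, and 2.64% of H3 replicate 2, against 2.53% of input 2. The pull-downs of H4 replicate 1 and H3 replicate 3 were thus below their inputs there, and that of H3 replicate 2 was slightly above.

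In the median bin the ratio to input was 0.799 within 1 Mb of an end, 0.853 from 1 to 5 Mb, 0.906 from 5 to 20 Mb and 1.06 in the interior for H4 replicate 1. H3 replicate 3 gave 0.811, 0.863, 0.940 and 1.04 over the same steps. H3 replicate 2 gave 1.02, 1.01, 0.989 and 0.995, and was flat. IgG gave 1.07, 1.05, 1.01 and 0.962 in replicate 2 and between 0.997 and 0.998 in replicate 3. The 3 Cenp-a libraries, which share these inputs, gave 0.739, 0.907 and 0.799 within 1 Mb of an end in replicates 1, 2 and 3.

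Every one of the 20 ends was low in both pairs that had the gradient. Relative to the interior of its own chromosome, the last 5 Mb of an end lay between -0.66 and -0.16 on the log2 scale in H4 replicate 1, lowest at the start of chromosome 1. In H3 replicate 3 it lay between -0.35 and -0.17. In H3 replicate 2 it lay between -0.05 and 0.06, with 3 of 20 ends below the interior. IgG replicate 2 was above its interior at all 20 ends (0.07 to 0.18), and IgG replicate 3 was below at 12 of 20 (-0.01 to 0.02). Over the 3 pairs the last 1 Mb differed from the interior by -0.25 ± 0.24 on the log2 scale (SD, n = 3, exact two-sided sign-flip test, p = 0.5), and by -0.39 without replicate 2. With 3 pairs the smallest p of this test is 0.25, so it cannot reach 0.05.

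**Figure D2:**
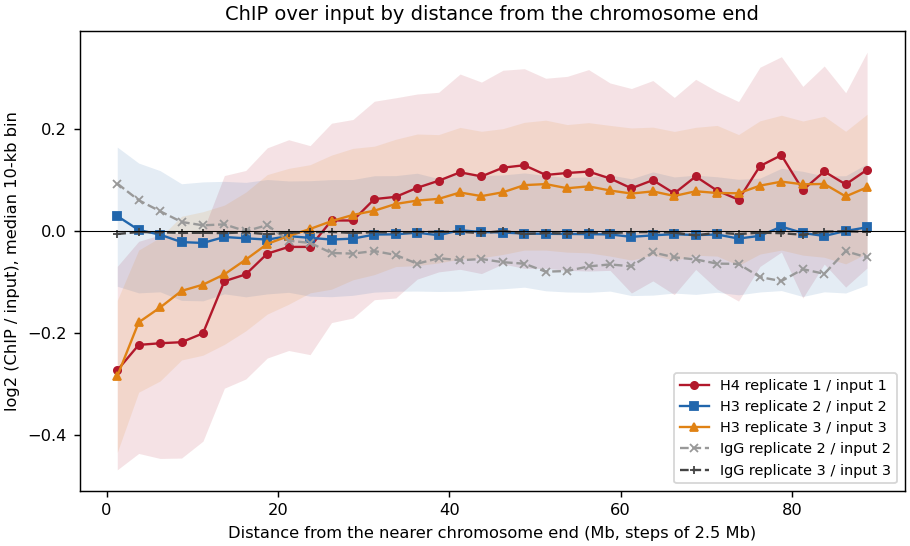
The median log2 ratio of ChIP to input over 10-kb bins is plotted against the distance from the nearer chromosome end, in steps of 2.5 Mb, with the middle 50% of bins shaded for the histone pairs. H4 replicate 1 and H3 replicate 3 climbed from below their inputs at the ends to above them in the interior, H3 replicate 2 and IgG replicate 3 stayed near 0, and IgG replicate 2 declined.

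The inputs themselves differed at the ends: input 1 held 2.97% of its counts in the last 1 Mb, input 2 2.53% and input 3 2.64%. With the mean of the 3 inputs as the common denominator, the last 1 Mb lay below the interior in each pull-down, at -0.25 for H4 replicate 1, -0.09 for H3 replicate 2 and -0.42 for H3 replicate 3 on the log2 scale. The same denominator left the 1 to 5 Mb step at -0.17, -0.08 and -0.31.

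Centromeric chromatin was higher than input with both histone antibodies. The main Cenp-a cluster of each chromosome, was defined for each pair from the Cenp-a and input libraries of the other replicates. It spans bins with at least 5-fold more Cenp-a than input, joined over gaps of up to 200 kb, and the bins between them count as well. On chromosome 7 the span held 25 bins, 15 of them at 5-fold. Clusters held 0.301% of the counts of H4 replicate 1, against 0.167% of input 1. They held 0.207% of H3 replicate 2, against 0.189% of input 2, and 0.246% of H3 replicate 3, against 0.187% of input 3. The ratio of summed CPM was 1.80 for H4, 1.10 and 1.31 for H3 of replicates 2 and 3, and 1.05 and 1.07 for IgG of replicates 2 and 3. The H4 ratio was the highest, while H3 replicate 2 was close to IgG. The size of the H4 excess depended on input 1. With own inputs the median cluster bin lay above the interior by 0.80, 0.14 and 0.32 on the log2 scale. These values are for H4 replicate 1 and H3 replicates 2 and 3. With the mean of the 3 inputs as the common denominator they were 0.61, 0.20 and 0.40.

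All 10 chromosomes had a ratio above 1 in each of the 3 pairs. H4 ranged from 1.39 on chromosome 7 to 2.30 on chromosome 4, H3 replicate 3 from 1.17 on chromosome 7 to 1.51 on chromosome 1, and H3 replicate 2 from 1.05 on chromosome 7 to 1.17 on chromosome 8. IgG ranged from 0.987 to 1.09 in replicate 2 and from 1.03 to 1.12 in replicate 3, where all 10 chromosomes were above 1 as well. H3 replicate 2 was below IgG replicate 2 on chromosomes 5 (1.08 against 1.09) and 7 (1.05 against 1.08), and above it on the others. Over the 3 pairs the median cluster bin differed from the interior by 0.42 ± 0.34 on the log2 scale (SD, n = 3, exact two-sided sign-flip test, p = 0.25, the smallest it allows), and by 0.23 without replicate 1. Beside the cluster, within 500 kb of it, the median ratio was 0.951 for H4, 0.984 for H3 replicate 2 and 0.975 for H3 replicate 3. On chromosome 8 the bins 0.5 to 5 Mb from the cluster had lower medians than on the other chromosomes in H4 (0.841) and H3 replicate 3 (0.937), but not in H3 replicate 2 (0.989).

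**Figure D3:**
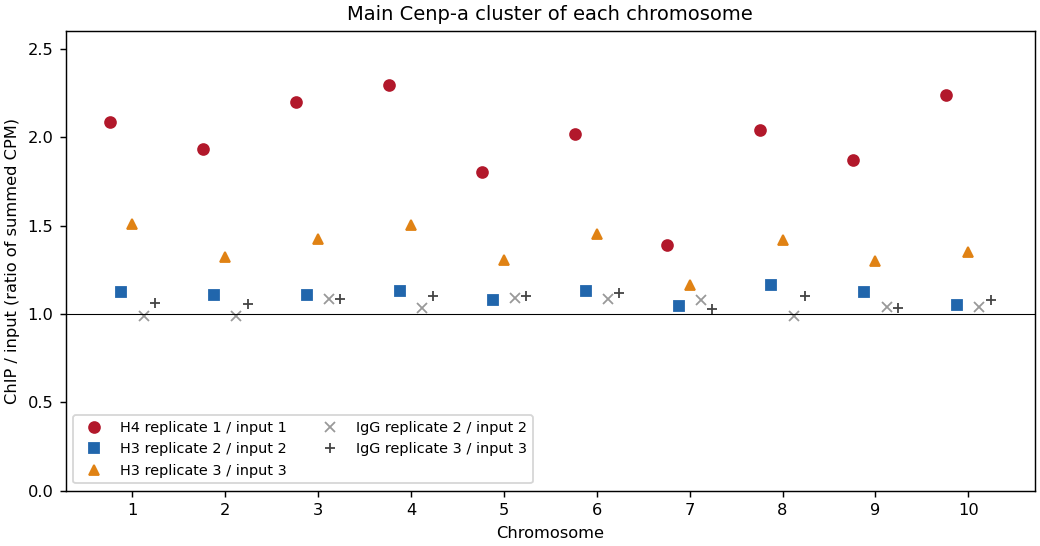
For each of the 10 chromosomes, the ratio of summed CPM of ChIP to input in the main Cenp-a cluster is shown for the H4 pair, both H3 pairs and both IgG pairs. H4 lay between 1.39 and 2.30, H3 replicate 3 between 1.17 and 1.51, and H3 replicate 2 between 1.05 and 1.17.

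Few single bins differed from input once all 3 pairs were tested together. With edgeR's quasi-likelihood test and the replicate as a block, 6 bins rose and 6 fell at a Benjamini-Hochberg adjusted p under 0.05 (0.00829% of 144701 bins tested, 0.00415% each way), and none reached 5-fold. With the unadjusted p below 0.05, 11763 bins were higher and 10281 lower. Without replicate 2 the count became 5066 higher and 5314 lower (3.5% and 3.67% of 144706 bins, 7.17% in all), and it was 107 without replicate 1 and 66 without replicate 3. Scaling by TMM factors, or leaving out the block, each gave 1 call. DESeq2 made 236, but left 137465 bins without an adjusted p, so its count is not on the same footing.

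None of the 6 higher bins lay within 5 Mb of a chromosome end, beside 6.85% of all bins. Of the 6, 3 overlapped annotated genes, beside 63.0% of all bins. With 6 bins these shares are descriptions only. The highest was an intergenic bin of chromosome 6 (40793438 to 40803437). It held 10.0 CPM in H4 replicate 1, 4.77 in H3 replicate 2 and 6.15 in H3 replicate 3, against 4.08, 3.18 and 3.40 CPM in inputs 1, 2 and 3. Every pull-down was above its own input, by a log2 fold change of 0.93 ± 0.13 (SE, edgeR adjusted p = 0.0381), and the bin before it was called too. IgG was 0.783 and 1.06 times its input there in replicates 2 and 3, and Cenp-a 1.59, 1.18 and 1.56 times in replicates 1, 2 and 3.

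A bin inside *abca1*, which encodes a membrane transporter that exports cholesterol, held 9.66, 5.64 and 8.26 CPM in H4 replicate 1 and H3 replicates 2 and 3, against 3.95, 4.12 and 4.42 CPM in inputs 1, 2 and 3. The bin lies on chromosome 1 (120079821 to 120089820; the gene spans 120018972 to 120094559), and its log2 fold change was 0.90 ± 0.14 (SE, edgeR adjusted p = 0.0397). IgG was 1.66 and 1.09 times its input in replicates 2 and 3, in replicate 2 more than H3 (1.36), and Cenp-a was 1.75, 1.42 and 1.59 times in replicates 1, 2 and 3. Whether a bin covers exons was not analysed here, since the gene table gives gene limits only.

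*acsl4* encodes an enzyme that activates long-chain fatty acids such as arachidonic acid. Its bin on chromosome 8 (51173929 to 51183928, within the gene at 51149913 to 51194770) had 12.6, 8.07 and 9.41 CPM in H4 replicate 1 and H3 replicates 2 and 3, against 5.19, 5.51 and 5.98 CPM in inputs 1, 2 and 3. The log2 fold change was 0.83 ± 0.13 (SE, edgeR adjusted p = 0.0397). IgG stood at 1.34 and 1.04 and Cenp-a at 2.12, 1.66 and 1.70 times the input.

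*rpl10a* encodes a protein of the large ribosomal subunit. The whole gene (chromosome 2, 69476247 to 69482889) and the end of the lncRNA LOC105948363 fall in the called bin 69475402 to 69485401. It had 11.6, 6.40 and 7.5 CPM in H4 replicate 1 and H3 replicates 2 and 3, against 5.22, 4.64 and 4.68 CPM in inputs 1, 2 and 3 (log2 fold change 0.78 ± 0.13 SE, edgeR adjusted p = 0.0485). IgG of replicate 2 was also above its input, 1.79-fold, and IgG of replicate 3 was 1.04-fold, while Cenp-a was 2.47-, 1.96- and 2.18-fold. An intergenic bin of chromosome 9 (34012456 to 34022455) completed the higher bins, with a log2 fold change of 0.84 ± 0.13 (SE, edgeR adjusted p = 0.0397), IgG at 1.41 and 1.08 and Cenp-a at 1.57, 1.34 and 1.48 times the input. The 5 higher bins described here were thus above input with Cenp-a as well, which shares these inputs, and IgG of replicate 2 was above its input in each but that of chromosome 6.

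Of the lower bins 1 of the 6 overlapped a gene and 3 lay within 5 Mb of a chromosome end, beside 63.0% and 6.85% of all bins. The strongest was on chromosome 9 (13440983 to 13450982) with no annotated gene. It held 1.51 CPM in H4 replicate 1, 3.18 in H3 replicate 2 and 1.86 in H3 replicate 3, against 6.13, 7.16 and 6.88 CPM in inputs 1, 2 and 3. The log2 fold change was -1.65 ± 0.15 (SE, edgeR adjusted p = 4.18e-05), the only one past 2-fold. The other pull-downs were low in this bin as well: IgG stood at 0.286 and 0.662 times its input in replicates 2 and 3, and Cenp-a at 0.178, 0.207 and 0.258 in replicates 1, 2 and 3.

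The other lower bins had log2 fold changes of -0.86 on chromosome 5 (131910803 to 131920802), -0.83 on chromosome 3 (540001 to 550000), -0.76 on chromosome 2 (180015222 to 180025221), -0.73 on chromosome 10 (870001 to 880000) and -0.70 on chromosome 4 (124790312 to 124800311). Their SE lay between 0.11 and 0.13 and their edgeR adjusted p between 0.0404 and 0.0498. The bin on chromosome 2 touches the protein-coding gene LOC116408941. In these 5 bins IgG lay between 0.694 (chromosome 10) and 1.55 times its input (chromosome 4) in replicate 2 and between 0.817 and 1.00 times in replicate 3. Cenp-a was below its input in each of them and each replicate, at 0.366 to 0.845 times.

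H3 alone gave more calls than the 3 pairs together. In the 2 H3 pairs 49 bins rose and 58 fell (0.0339% and 0.0401% of 144709 tested with edgeR, 0.0739% in all). This fit left 1 residual degree of freedom. Its spread over all bins was smaller than with all 3 pairs (edgeR common dispersion 0.00579, against 0.00850), so the numbers of calls are not on the same footing. Of the higher bins 35 of 49 (71.4%) overlapped a gene and 1 lay within 5 Mb of an end. Of the lower bins 27 of 58 (46.6%) overlapped a gene and 24 (41.4%) lay within 5 Mb of an end. Among all bins tested on chromosomes 63.0% overlapped a gene and 6.85% lay within 5 Mb of an end. H4 replicate 1, which took no part in this fit, was above its input in 46 of the 49 higher bins and in 1 of the 58 lower ones, beside 52.4% of all bins tested. DESeq2 called 1 bin in this comparison, and edgeR without the block called 5.

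The highest H3 bin lay on chromosome 7 (18571474 to 18581473, no gene) and its H4 value differed in direction. H3 replicates 2 and 3 had 5.05 and 2.97 CPM, against 1.60 and 1.905 CPM in inputs 2 and 3 (log2 fold change 1.13 ± 0.20 SE). H4 replicate 1 had 2.09 CPM, against 2.503 CPM in input 1. The bin was shallow, with a mean input of 0.339 times the median bin. IgG was 1.51 and 1.07 times its inputs in replicates 2 and 3, beside 3.02 and 1.53 times for H3. A bin of chromosome 6 (43603438 to 43613437) was next with 0.88 ± 0.12 (SE).

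The third H3 bin covers the start of the annotated span of *zfhx4* on chromosome 6 (122400312 to 122410311; gene 122403487 to 122529518), a transcription factor with zinc fingers and homeodomains. H3 replicates 2 and 3 had 6.09 and 6.24 CPM, against 3.16 and 3.71 CPM in inputs 2 and 3, and the log2 fold change was 0.84 ± 0.15 (SE, edgeR adjusted p = 0.00029). H4 replicate 1 was 1.08 times its input, and IgG 2.30 and 1.10 times its inputs in replicates 2 and 3. Another bin close to the start of chromosome 1 (580001 to 590000) had 0.78 ± 0.13 (SE).

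Besides the chromosome 9 bin, the lowest H3 values were at chromosome 2 (70001 to 80000, log2 fold change -1.10 ± 0.21 SE), in *spef2* on chromosome 1 (198556695 to 198566694, -1.08 ± 0.26 SE), at chromosome 3 (540001 to 550000, -0.88, also called with all 3 pairs) and at chromosome 1 (31662456 to 31672455, -0.75 ± 0.13 SE). *spef2* encodes a protein of sperm flagella. Its bin held 1.41 and 0.642 CPM in H3 replicates 2 and 3, against 2.26 and 1.98 CPM in inputs 2 and 3, and H4 replicate 1 had 0.766 CPM, against 2.40 CPM in input 1. IgG was 0.251 and 0.681 times its input there, so this bin too was low in every pull-down. The longest run of H3 calls, 5 of 6 bins over 60.0 kb on chromosome 1 (81476875 to 81536874), overlaps LOC105945457 and rose 1.86-fold in H3 replicate 2 and 1.20-fold in H3 replicate 3 (H4 replicate 1 was 1.46-fold). A run of 2 called bins over 30.0 kb overlaps *fhod1*, a formin that organises actin, at 1.25-fold and 1.55-fold in H3 replicates 2 and 3.

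In windows of 1 Mb, chosen after seeing the data, most of the lower calls lay toward chromosome ends. Of 1446 windows 24 rose and 98 fell by edgeR with the block (1.66% and 6.78%, 8.44% in all). Of the 98 lower windows 91 lay within 20 Mb of an end, as did 401 of all 1446 windows, and of the 24 higher windows 1 did. The changes were small, with log2 fold changes of -0.31 to -0.14 in the lower windows and 0.15 to 0.22 in the higher ones. H4 replicate 1 and H3 replicate 3 were below their inputs in all 98 lower windows, and H3 replicate 2 was above its input in 28 of them. The 24 higher windows were above input in all 3 pairs. The calls depended on replicate, block and scaling: TMM factors gave 0 (73 higher and 135 lower with the unadjusted p below 0.05), the fit without the replicate block gave 0 (253 and 140), leaving out replicate 1 gave 0 (5 and 53), leaving out replicate 3 gave 2, and leaving out replicate 2 gave 442.

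The 3 lowest called windows lay on chromosome 8, starting at 17000001, 18000001 and 20000001. In the window that starts at 18000001, H4 replicate 1 had 782 CPM, H3 replicate 2 1034 CPM and H3 replicate 3 961 CPM, against 1238, 1070 and 1124 CPM in inputs 1, 2 and 3. All 3 pulled down less than the input, by a log2 fold change of -0.31 ± 0.07 (SE, edgeR adjusted p = 0.00274), and IgG was at -0.01 and -0.03 from its inputs on the log2 scale in replicates 2 and 3. In this window 3 protein-coding genes start. The main Cenp-a cluster of the chromosome begins after it, at 21351474. The highest called window also lay on chromosome 8 (57000001 to 58000000), with 972, 815 and 858 CPM in H4 replicate 1 and H3 replicates 2 and 3, against 720, 787 and 759 CPM in inputs 1, 2 and 3 (log2 fold change 0.22 ± 0.06 SE, edgeR adjusted p = 0.0124).

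The H4 pair differed from the H3 pairs in more places, most of the higher ones in genes. In the interaction of ChIP with replicate 1, 457 bins were higher and 565 lower in the H4 pair (0.316% and 0.39% of 144701 tested with edgeR, 0.706% in all). H4 had 1 pair, so the fit had 1 residual degree of freedom and its spread came from the 2 H3 pairs, and DESeq2 called 0 bins here (255 higher and 538 lower with the unadjusted p below 0.05). In 1-Mb windows 2 were higher and 61 lower (0.138% and 4.22% of 1446, 4.36% in all). Of the 61, 56 lay within 20 Mb of an end. H4 replicate 1 and H3 replicate 3 were below their inputs in all 61, and H3 replicate 2 was above its input in 8. Of the higher bins 399 (87.3%) overlapped a gene and 8 (1.75%) lay within 5 Mb of an end. Of the 563 lower bins on chromosomes 288 (51.2%) overlapped a gene and 133 (23.6%) lay within 5 Mb of an end, against 63.0% and 6.85% of all bins. In the higher bins the median ratio to input was 1.86 for H4, 0.963 for H3 replicate 2 and 1.07 for H3 replicate 3. In the lower bins it was 0.530, 1.08 and 0.929.

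In these bins input 1 as well as H4 replicate 1 stood apart from the libraries of the other replicates. In the 457 higher bins H4 replicate 1 was 1.43 times the mean of the H3 libraries in the median bin and above it in all 457. Input 1 was 0.794 times the mean of inputs 2 and 3 and below it in 439 (96.1%, against 56.7% of all bins). In the 563 lower bins the medians were 0.645 for H4 replicate 1 against the H3 libraries and 1.22 for input 1 against the other inputs. The calls were made on the ratio of these same libraries, which favours a high H4 replicate 1 and a low input 1 in the higher bins and the reverse in the lower ones, so these values only describe the called bins. The part of input 1 in the calls was not tested.

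The 5 highest bins on this list included *vmp1*, *ccn2* and *higd1a*. *vmp1* encodes a membrane protein of the endoplasmic reticulum that takes part in autophagy. A bin over one side of the gene (chromosome 2, 91437366 to 91447365; gene 91335035 to 91444877) and over the edge of the lncRNA LOC116408854 had 14.8 CPM in H4 replicate 1, against 2.62 CPM in input 1. It is the single bin past 5-fold, at 5.49-fold. The H3 replicates 2 and 3 had 3.97 and 6.38 CPM, against 3.91 and 3.94 CPM in inputs 2 and 3. The H4 pair exceeded the H3 pairs by a log2 value of 2.11 ± 0.24 (SE, edgeR adjusted p = 4.31e-14). Cenp-a of replicate 1 was further above input 1 than H4, at 7.97 times, Cenp-a of replicates 2 and 3 was 2.23 and 3.70 times its inputs, and IgG 1.75 and 1.14 times.

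*ccn2* encodes a secreted matrix protein also known as connective tissue growth factor. The bin that holds one side of it (chromosome 5, 70065893 to 70075892; gene 70072780 to 70076742) had 11.6 CPM in H4 replicate 1, against 4.10 CPM in input 1. H3 replicates 2 and 3 had 5.36 and 5.003 CPM, against 4.76 and 4.77 CPM in inputs 2 and 3, so that H3 was near its input (difference of the pairs 1.38 ± 0.23 SE on the log2 scale). *higd1a*, a mitochondrial protein that hypoxia induces, lies wholly in its bin (chromosome 6, 9430492 to 9440491; gene 9431655 to 9438903), with 9.94 CPM in H4 replicate 1, against 3.51 CPM in input 1. H3 replicates 2 and 3 had 6.13 and 6.04 CPM, against 5.54 and 5.29 CPM in inputs 2 and 3 (difference 1.33 ± 0.23 SE). Cenp-a of replicate 1 exceeded H4 in both bins, at 3.54 times input 1 for *ccn2* (H4 2.78) and 5.09 times for *higd1a* (H4 2.78), and in replicates 2 and 3 it was 1.32 and 1.78 times its inputs for *ccn2* and 1.98 and 2.08 times for *higd1a*.

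The other higher bins had no annotated gene. A bin near the end of chromosome 1 (215598168 to 215608167) had 6.19 CPM in H4 replicate 1, against 1.68 CPM in input 1 (difference 2.16 ± 0.38 SE). H3 replicates 2 and 3 had 1.16 and 1.22 CPM there, against 1.63 and 1.28 CPM in inputs 2 and 3. This bin was shallow, with a mean input of 0.258 times the median bin. A bin of the main Cenp-a cluster of chromosome 3 (16700983 to 16710982) had 24.3 CPM in H4 replicate 1, against 6.72 CPM in input 1. There H3 replicates 2 and 3 had 9.81 and 11.8 CPM, against 8.36 and 7.95 CPM in inputs 2 and 3, and the pairs differed by 1.45 ± 0.21 (SE) on the log2 scale.

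The lowest bins of the H4 pair had mean inputs of 0.304 to 0.789 times the median bin. On chromosome 1 (213247677 to 213257676) H4 replicate 1 had 0.575 CPM, against 1.899 CPM in input 1, and H3 replicates 2 and 3 had 1.86 and 2.10 CPM, against 1.67 and 1.83 CPM in inputs 2 and 3. The pairs differed by -1.9 ± 0.46 (SE) on the log2 scale. The next were on chromosome 8 (2440001 to 2450000, -1.59 ± 0.33), chromosome 4 (19871474 to 19881473, -1.55 ± 0.39), chromosome 9 (90857366 to 90867365, -1.51 ± 0.32) and chromosome 1 in LOC100490037 (214157677 to 214167676, -1.42 ± 0.36). Their edgeR adjusted p lay between 0.0046 and 0.025. From the chromosome 8 bin on, in that order, H4 replicate 1 was at 0.410, 0.349, 0.321 and 0.433 times its input. H3 replicate 2 was at 1.68, 0.887, 1.21 and 1.35 times, and H3 replicate 3 at 0.817, 1.03, 0.588 and 0.898 times.

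The 5 longest runs of higher bins in the H4 pair spanned 70.0 to 110 kb, and those of lower bins 120 to 220 kb. All of them overlapped genes. Spans of this length overlap a gene more readily than single bins do (63.0%). The share for such spans was not computed, so this overlap is a description only. The longest run of higher bins, 5 called bins over 110 kb of chromosome 3 (61934911 to 62044910), falls on *nav3*, a microtubule-binding neuron navigator. H4 replicate 1 was 1.70 times its input over the run, against 1.04 and 1.15 times for H3 replicates 2 and 3. The genes named for a run overlap its span, which also takes in bins that were not called. A 70.0-kb run over *shb*, an adaptor of tyrosine kinase signalling, had 3 of 7 bins called. It stood at 1.80 for H4 and 1.03 and 1.22 for H3. Another run, with 2 of 7 bins called, overlapped *klhl22*, *crkl*, *vegt* and *cabin1*. *vegt* encodes a T-box factor that *Xenopus* eggs store for endoderm formation. Over that run H4 was 1.44 times its input, and H3 0.982 and 1.15 times. The fifth run, with 2 of 7 bins called, overlapped *nadk2* and *ranbp3l* (1.27 for H4, 0.939 and 1.05 for H3). The longest run of lower bins, 7 called bins over 220 kb of chromosome 8 (14290983 to 14510982) with 5 LOC genes, stood at 0.551 for H4 and 1.11 and 0.691 for H3 of replicates 2 and 3.

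Ribosomal RNA genes gave the run of 100.0 kb on chromosome 7 (76846384 to 76946383). In its first bin, which holds 3 rRNA genes, H4 replicate 1 had 72.4 CPM, against 54.6 CPM in input 1. H3 replicates 2 and 3 had 19.8 and 23.2 CPM, against 28.1 and 29.0 CPM in inputs 2 and 3. Replicate 1 thus carried more reads of this locus in both of its libraries, and its H4 exceeded the input while H3 was below it. IgG was further below its inputs in this bin, at 0.598 and 0.672 times in replicates 2 and 3, against 0.705 and 0.803 times for H3. Over all 51 bins with rRNA gene starts the median ratio was 0.957 for H4, 0.898 for H3 replicate 2 and 0.866 for H3 replicate 3. It was 0.964 and 1.00 for IgG of replicates 2 and 3. Of these bins, 58.8% lay within 5 Mb of an end, where H4 replicate 1 and H3 replicate 3 were low. H3 replicate 2 was not low there, at 1.02 within 1 Mb of an end and 1.01 from 1 to 5 Mb. The part of this position in the low ratios was not tested. Reads of any mapping quality were counted, so near-identical rRNA copies cannot be told apart.

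Gene groups were set by RefSeq symbol or gene type and compared by the bins that hold their gene starts. A start was the lower coordinate of a gene, which on the reverse strand is the side where the gene ends. Ribosomal protein genes, expressed in all growing cells, stood highest in H4 replicate 1 and H3 replicate 3. Over 74 bins the median ratio was 1.35 for H4 replicate 1, 1.03 for H3 replicate 2 and 1.14 for H3 replicate 3, beside 1.01, 0.995 and 1.01 over all bins tested. H4 was above its input in 68 of 74 bins, H3 replicate 2 in 53 and H3 replicate 3 in 57, and IgG stood at 0.980 and 1.01. In the test of all 3 pairs 1 of the 74 rose (*rpl10a*; 0.00415% of all bins rose) and 0 fell, with a median log2 fold change of 0.23, beside 0.01 over all bins.

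In the H4 pair against the H3 pairs 4 of the 74 ribosomal protein bins were higher and 0 lower, where 0.316% of all bins were higher. *rps15a*, of the small subunit, had 10.2 CPM in H4 replicate 1, against 4.72 CPM in input 1, and 5.90 and 6.22 CPM in H3 replicates 2 and 3, against 5.84 and 5.59 CPM in inputs 2 and 3. The pairs differed by 1.02 ± 0.22 (SE) on the log2 scale. *rps24* differed by 0.94 and *rpl23a* by 0.82. In each of these 3 genes H4 was at least 1.61 times its input, while H3 lay between 0.880 and 1.12 times its input.

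MicroRNA genes gave 142 bins, with a median ratio of 1.13 for H4 and 1.02 and 1.05 for H3. In the H4 pair 5 of these 142 bins were higher and 1 lower, beside 0.316% and 0.39% of all bins. None was called with all 3 pairs, where 0.00829% of all bins were. The largest difference was at *mir29a* and *mir29d* (chromosome 3, bin 84736875 to 84746874), microRNAs known in mammals for silencing collagen mRNAs. H4 replicate 1 had 15.9 CPM there, against 5.39 CPM in input 1, and H3 replicates 2 and 3 had 8.49 and 9.70 CPM, against 7.63 and 6.89 CPM in inputs 2 and 3 (difference 1.23 ± 0.21 SE). Bins of *mir22*, *mir34b-3*, the pair *mir130b* and *mir454*, and the pair *mir27c-1* and *mir23a-2* were higher by 0.96, 0.91, 0.88 and 0.81. The bin of *mir428b*, near the start of chromosome 8, was lower, by -0.85. Its ratio to input was 0.454 for H4 replicate 1, 1.21 for H3 replicate 2 and 0.549 for H3 replicate 3.

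Histone genes (27 bins) had a median of 1.20 for H4 and 1.07 and 1.04 for H3 of replicates 2 and 3, and centromere protein genes (19 bins) had 1.14, 0.977 and 1.05. No bin of either group was called by edgeR in the test of all 3 pairs or between the pairs, beside 0.00829% and 0.706% of all bins. Groups this small can hold no call at such shares without differing from other bins. Zinc finger genes (145 bins) had 1.06, 1.00 and 1.04. Of these, the bins of *znf554* (0.96) and *znf831* (0.84) were higher in the H4 pair than in the H3 pairs, 2 of 145 beside 0.316% of all bins. Hox genes, which pattern the body axis and carry Polycomb chromatin where silent, were at their inputs, with 0.985, 0.986 and 0.997 over 32 bins. Among them the bin of *hoxa5* was higher in the H4 pair by 0.85, 1 of 32 beside 0.316% of all bins.

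Olfactory receptor genes, expressed in sensory neurons, were the lowest protein-coding group in H4 among the groups compared. The group holds only the 36 genes that carry an olfactory receptor symbol. Over 34 bins the median ratio was 0.859 for H4 and 0.961 and 0.935 for H3 replicates 2 and 3, with 6 of 34 bins above input in H4 and 13 in each H3 library. Of these bins 35.3% lay within 5 Mb of an end, against 6.85% of all bins, and the part of this position in the low ratio was not tested. Of the 34 bins 1, that of *or5m8*, was lower in the H4 pair, by -1.09 ± 0.24 (SE), beside 0.39% of all bins. Globin genes (11 bins) had 0.948, 0.991 and 0.913, keratins (44 bins) 0.960, 0.988 and 0.955, and protocadherins (20 bins) 1.04, 0.994 and 1.00. tRNA genes (412 bins) had 0.960, 0.994 and 0.977, with the bins of *trnat-agu* (-0.98) and of *trnan-guu* and *trnay-gua* (-0.93) lower in the H4 pair, 2 of 412 beside 0.39% of all bins. The tRNA bin of *trnag-gcc* was higher in H3 alone, by 0.59, where 0.0339% of all bins were higher. snRNA genes (104 bins) had 0.941, 0.978 and 0.913. No bin of these groups was called with all 3 pairs, beside 0.00829% of all bins.

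**Figure D4:**
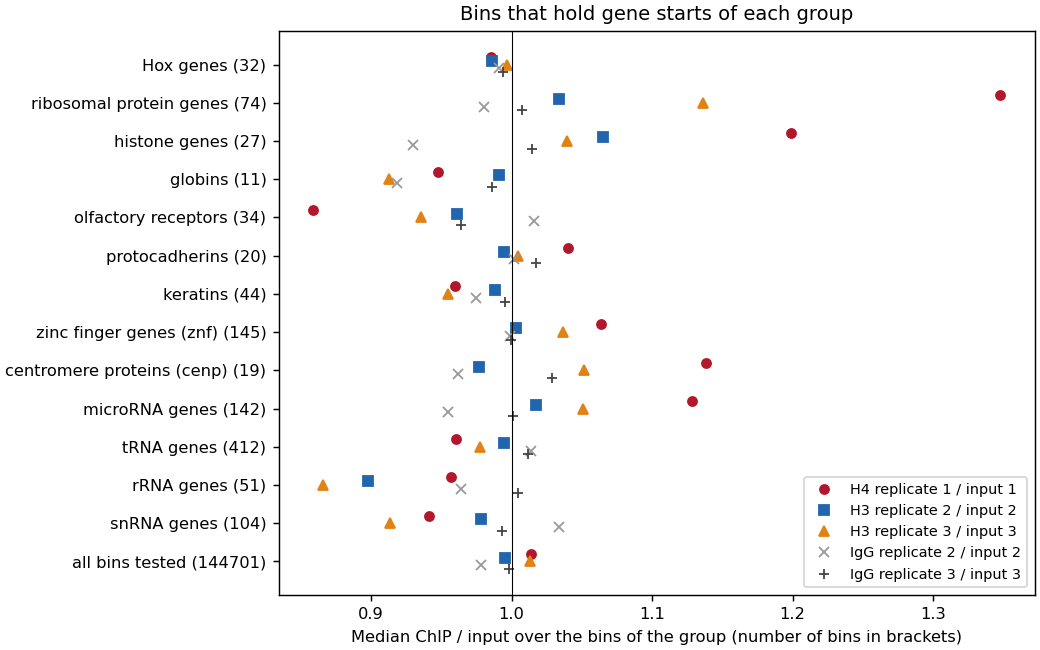
The median ratio of ChIP to input over the bins with gene starts of each group (number of bins in brackets) is shown for the H4 pair, both H3 pairs and both IgG pairs, with all bins tested at the bottom. Ribosomal protein genes were highest in H4 (1.35) and in H3 replicate 3 (1.14), and olfactory receptors were lowest in H4 (0.859).

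Among all genes the difference was smaller. Starts counted here were those of protein-coding genes only, and bins with starts of other genes were counted as gene body. In the interior, the median H4 ratio was 1.09 in bins with such a start, 1.09 in other genic bins and 1.01 without genes. For H3 replicate 3 these were 1.05, 1.05 and 1.03, and for H3 replicate 2 1.00, 0.998 and 0.990. All 3 pairs had the same order of genic over intergenic bins by these medians, and the steps of H3 replicate 2 were the smallest. With summed counts, H3 replicate 2 differed from the whole interior by 0.00277, -0.000374 and -0.000442 on the log2 scale. Its bins in gene bodies then hardly differed from those without a gene. IgG had medians of 0.971, 0.958 and 0.964 in replicate 2 and 0.999, 0.998 and 0.997 in replicate 3.

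High-copy sequence split the pairs. In 15 stretches of at least 5 bins the mean input was 10 times the median bin or more. H4 replicate 1 was above its input in 2 of them, H3 replicate 2 in 10 and H3 replicate 3 in 3. At the end of chromosome 2 (180875222 to 181025221) the input stood at 40.1 times the median bin. H4 replicate 1 put 0.235% of its counts there, against 0.394% of input 1. H3 replicate 2 put 0.363%, against 0.326% of input 2, and H3 replicate 3 0.269%, against 0.347% of input 3. Ends of chromosomes 5 and 6 had nearly the same ratios: 0.609, 1.13 and 0.789 at the end of chromosome 5, and 0.595, 1.09 and 0.783 at the start of chromosome 6. The 4 stretches of chromosome 8 between 13680983 and 16880982, with LOC genes, had 0.562 to 0.667 for H4, 1.08 to 1.10 for H3 replicate 2 and 0.694 to 0.787 for H3 replicate 3. IgG of replicate 2, which shares input 2 with H3 replicate 2, stood at 1.14 at the ends of chromosomes 2 and 5. It stood at 1.13 at the start of chromosome 6 and at 1.11 to 1.12 in these 4 stretches, each time above H3 replicate 2. IgG of replicate 3 had 1.07, 1.08, 1.07 and 0.958 to 0.990 at the ends of chromosomes 2 and 5, the start of chromosome 6 and the 4 stretches.

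One stretch was high in all 3 pairs. On chromosome 9 (55524420 to 55844419) 30 high-copy bins without an annotated gene took 1.00% of the counts of H4 replicate 1, against 0.670% of input 1. They took 0.829% of H3 replicate 2, against 0.653% of input 2, and 0.884% of H3 replicate 3, against 0.642% of input 3. The ratios were 1.5, 1.27 and 1.38, and 29 of the 30 bins were above input in each pair. IgG was 1.03 and 1.12 times its inputs in replicates 2 and 3, and Cenp-a 1.56, 1.22 and 1.42 times in replicates 1, 2 and 3. The stretch lies 35.4 Mb from the nearer end, away from the main Cenp-a cluster that ends at 42153437, and it made its 1-Mb window the highest in each pair (log2 ratios of 0.57, 0.33 and 0.44), though this window was not among the 24 called higher. The stretch was singled out after its values were seen.

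**Figure D5:**
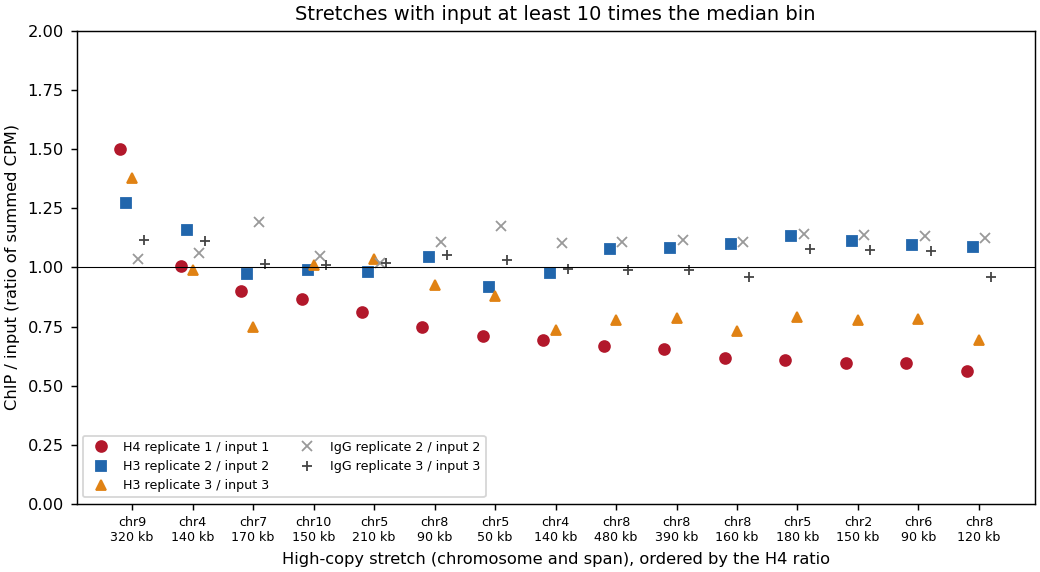
For each of 15 stretches with an input of at least 10 times the median bin, the ratio of summed CPM of ChIP to input is shown for the H4 pair, both H3 pairs and both IgG pairs, ordered by the H4 ratio. The chromosome 9 stretch is above 1 in all 3 histone pairs (1.5, 1.27 and 1.38). H3 replicate 2 and both IgG pairs stay near or above 1 in the stretches where H4 replicate 1 and H3 replicate 3 fall below 0.8.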

How the data were processed

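Raw read counts in 10-kb bins were deposited. The authors trimmed reads with Trimmomatic 0.39, aligned them to the unmasked v10 genome with minimap2 2.17-r941, sorted with SAMtools 1.9 and counted with deepTools 3.3.0 at a mapping quality of 0 or more. No removal of duplicates is described, and both reads of a pair can count. Repeats are thus counted but not placed exactly.

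Library size was the total on the 10 chromosomes. Bins that reached 10 counts in 50% or more of a comparison's libraries entered edgeR 4.0.16 (R 4.3.3; glmQLFit, robust, glmQLFTest), with the replicate as a block, as in the study's comparison of a ChIP with its replicate's input. Deviations of same-numbered ChIP and input libraries from their group means had correlations of 0.145, -0.082 and 0.136 in replicates 1, 2 and 3, so the data alone do not pair them. DESeq2 1.42.0 was an alternative, and the fits were tested on simulated data. These had the same dispersion in all bins and no difference between replicates, unlike the measured data. Of 100 changes of 1.5-fold, the fit of all 3 pairs recovered 69 and that of H3 alone 58. The fit of the H4 pair against the H3 pairs recovered 8. Of 100 changes of 2-fold, they recovered 100, 100 and 56. Genes came from a RefSeq table of UCB_Xtro_10.0 (28772 genes on chromosomes), whose chromosomes were matched to the files by length. A gene start was the lower coordinate of the gene, whatever its strand. No vomeronasal receptor symbols were found in it, and promoter sequences were not used here.

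Named bins were up to 10 higher and 10 lower bins called with all 3 pairs, up to 5 each way for H3 alone and for the H4 pair against the H3 pairs (at most 1 per 200 kb), the 5 longest runs joined at 50 kb, called bins of the gene groups (1 of them is not reported here), and bins past 5-fold in 1 pair. Comparisons, gene lists and rules were chosen with earlier results of these data known.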

Additional observations from a re-analysis of the deposited data

Results flagged for a closer look

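The H4 pair and the H3 pairs differed in their ratio to input in 1022 bins and in 63 windows of 1 Mb by edgeR's interaction test. Of the bins with the largest differences, those higher in the H4 pair were on chromosome 1 at 215598168 (2.16 on the log2 scale), chromosome 2 at 91437366 in *vmp1* (2.11), chromosome 3 at 16700983 (1.45), chromosome 5 at 70065893 over *ccn2* (1.38) and chromosome 6 at 9430492 with *higd1a* (1.33). Those lower in the H4 pair were on chromosome 1 at 213247677 (-1.9), chromosome 8 at 2440001 (-1.59), chromosome 4 at 19871474 (-1.55), chromosome 9 at 90857366 (-1.51) and chromosome 1 at 214157677 (-1.42). The H4 antibody was used in replicate 1 only, so antibody and replicate cannot be told apart in any of these.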

How the results depend on the processing

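The number of bins called depended on the test and the replicates, and regional differences on the replicates. For all 3 pairs, 12 bins were called, 1 with TMM factors, 236 with DESeq2 (137465 bins had no adjusted p) and between 66 and 10380 with a replicate left out. A limit of 2-fold left 1 and a limit of 5-fold 0. Of the 12 bins, 12 were also called without replicate 2. For H3 alone, 107 bins became 1 with DESeq2, and 53, 4 and 0 at 1.5-, 2- and 5-fold. For the H4 pair against the H3 pairs, 1022 bins became 0 with DESeq2, 209 at 2-fold and 0 at 5-fold. In 1-Mb windows, 122 calls became 0 with TMM factors and between 0 and 442 with a replicate left out, and 63 calls between the H4 and H3 pairs became 177 with TMM factors. Without the replicate block the calls were 1 for all 3 pairs, 5 for H3 alone and 0 for 1-Mb windows (253 higher and 140 lower with the unadjusted p below 0.05). The cause was not tested. The cluster difference from the interior of 0.42 on the log2 scale became 0.23 without replicate 1. For the last 1 Mb, -0.25 became -0.39 without replicate 2. For interior bins with a protein-coding gene start, 0.0187 became 0.00587 without replicate 1. With the mean of the 3 inputs, H3 replicate 2 in the last 1 Mb turned to -0.09, against 0.03 with its own input. No named bin turned its direction. Leaving out a replicate gives no test for H3 alone, where 1 pair remains, and none for the H4 pair against the H3 pairs, where no residual degrees of freedom remain. With 1 H4 library, in replicate 1 only, no difference of the pairs, whatever its size, can be assigned to the antibody. IgG of replicate 2, at 4053600 counts, was imprecise in single bins.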

Other observations

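Gene density, counted as starts of protein-coding genes, and the histone ratios had no common order across 1-Mb windows. The Pearson correlation of the log2 ratio with the number of these starts was taken over 1446 windows. It was -0.0547 for H4 replicate 1, -0.301 for H3 replicate 3 and 0.197 for H3 replicate 2 (Spearman 0.0580, -0.213 and 0.255). For IgG it was 0.276 in replicate 2 and 0.114 in replicate 3. Windows along a chromosome are not independent, so these are descriptions. Within the interior, single bins with genes nevertheless had higher H4 ratios than bins without genes (1.09 against 1.01).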
